A study of Mus musculus with 4 samples.

Results

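Expression of 45 genes of glucose transport, glycolysis, the pentose phosphate pathway and the response to low oxygen was examined in CD4+ lymphoma cells and normal CD4+ cells of the mouse spleen. The genes were taken as a fixed list of enzymes, transporters, regulators and known targets of the hypoxia-inducible factor. The list was chosen with earlier results of these data known. A gene was measured by the probe set to which the platform annotation gives that symbol alone, and by the brightest over the 4 arrays where there were several. Of the 45 genes, 41 had such a probe set, out of 19938 genes measured in this way. No filter on low values was applied. Gpi1, Gapdh, Eno1 and G6pdx had none and are not among the 41.

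The lymphoma group held 2 arrays, with CD4+ lymphoma cells from the spleen of homozygous Tet2 gene trap animals. Tet2 encodes an enzyme that oxidises methylated cytosine in DNA. The wild type group held 2 arrays, with CD4+ splenocytes of wild type animals. Both groups were of the C57BL/6 strain, and per the labels' protocols red cells were lysed and CD4+ cells were collected with a biotinylated antibody on magnetic columns. The comparison asks how CD4+ lymphoma arising in these mice differs from normal CD4+ cells. A gene trap is a cassette inserted into a gene that interrupts its transcript, and Tet2 was trapped in the whole animal as far as the labels say, so genotype and malignancy differ together and cannot be told apart. Nothing in the labels says how many animals each sample came from, so p-values measure the spread between these samples, which may be technical. The sources used here do not give age or sex. The trapped gene Tet2 had 596 and 399 in lymphoma against 979.9 and 1016 in wild type (log2 difference -1.03, SE 0.24, adjusted p = 0.077 in limma), and the sources used here do not place the trap relative to its probes.

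Glycolysis splits glucose into pyruvate in a chain of cytosolic steps, and activated T cells, like many tumours, are known to run it fast and to export the product as lactate even with oxygen at hand. The pentose phosphate pathway branches off after the first step and yields NADPH and the ribose of nucleotides. The alpha subunit of the hypoxia-inducible factor is hydroxylated by oxygen-dependent prolyl hydroxylases and then degraded. When oxygen is low it persists, binds the short sequence known as the hypoxia response element, and raises the transcription of glycolytic enzymes and of many other genes. In T cells the factor is also raised by antigen receptor signals, and much of its control lies in protein stability, which an RNA array does not measure.

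Of the 41 measured genes, 10 were higher in lymphoma at an adjusted p under 0.05 and 0 were lower (limma, Benjamini-Hochberg over 19938 genes). Over all genes 1.82% were called higher and 2.46% lower, 4.27% in either direction. Because the list was chosen with earlier results of these data known, no test over the list was made. The 10 were the 3 phosphofructokinase genes Pfkl, Pfkm and Pfkp, the enzymes Tpi1, Pgk1, Pgam1 and Pkm, the lactate exporter Slc16a3, the factor Hif1a and the mitophagy receptor Bnip3. At an unadjusted p under 0.05 in limma, 22 of the 41 were higher and 2 lower, where the shares over all genes were 8.73% and 6.92%. Both lymphoma arrays lay above both wild type arrays for 26 genes, below them for 7 and overlapped them for 8, where the shares over all genes were 20.6% above and 23.5% below. The median log2 difference of the 22 transport, glycolysis and lactate genes was 0.91, that of the 3 pentose phosphate genes 0.09 and that of the 13 hypoxia targets 0.26, beside -0.04 over all genes. Leaving out a wild type array, whichever of them it was, left 0 of the 19938 genes past the threshold in limma, while 22 of the 41 genes (without wild type array 1) or 21 (without wild type array 2) were higher at an unadjusted p under 0.05. The shares of all genes higher at that p were 7.11% and 4.66% in the same 2 fits.

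Markers of several cell types differed between the groups. Of 7 measured B cell markers, 7 were lower in lymphoma, with a summed intensity of 2188 and 1042 in lymphoma against 16181 and 10546 in wild type. Of 7 macrophage and monocyte markers 4 were lower, with sums of 1966 and 3049 in lymphoma against 7769 and 8342 in wild type. Of 7 dendritic cell markers 6 were lower, with sums of 731 and 756 in lymphoma and 5008 and 4184 in wild type. Of 6 T cell markers none passed in limma (at an unadjusted p under 0.05, 4 were higher and 1 lower), and their sums were 26033 and 26561 in lymphoma against 22475 and 22598 in wild type. Their log2 differences ran from -0.92 for Cd5 to 0.63 for Cd3d, with a mean of 0.15. Of 5 plasma cell markers 2 were lower, of 4 natural killer cell markers 1 was lower and of 6 neutrophil markers 1 was higher. Both CD8 T cell markers, all 3 erythroid and all 4 platelet markers did not pass in limma, and the CD8 T cell markers had differences of -1.11 and -1.27 (lower at an unadjusted p under 0.05). Of 10 cell division genes 6 were higher and none was lower (0 also at an unadjusted p under 0.05), among them the proliferation marker Mki67, with 2790.3 and 2356 in lymphoma against 1299.6 and 1071 in wild type. The lowest intensity on any array was 2.5, so a value above 0 does not show that a cell type was present. The part of these shifts in the results on glucose and hypoxia genes was not tested. In such bulk samples a smaller share of a cell type cannot be told apart from less RNA per cell.

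**Figure D1:**
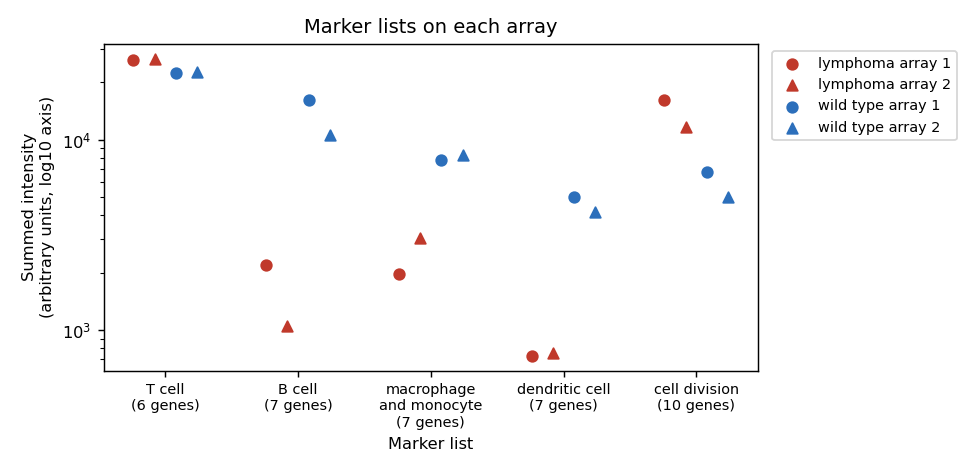
Summed deposited intensity (arbitrary units, log10 axis) of the measured markers of each cell type on the 4 arrays, with lymphoma in red and wild type in blue, and circles for array 1 and triangles for array 2. The B cell sums are 2188 and 1042 in lymphoma and 16181 and 10546 in wild type, while the cell division sums are higher in lymphoma.

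Promoter windows of 5 genes with higher values in lymphoma are shown. On the probe sets used, Slc16a3, Tpi1, Bnip3 and Pgk1 had the 4 largest differences among the called genes. A second Bnip3 probe set differed by 1.23, less than Pgk1 did. Ldha, a much-used hypoxia target, missed the threshold. Each window runs from 250 bases before to 50 bases after the transcription start, 5′ to 3′ on the gene's strand, as RefSeq gives it on GRCm38.p6. Capitals mark the core of the hypoxia response element, ACGTG or GCGTG, on either strand, so that its reverse complement reads CACGT or CACGC.
Slc16a3: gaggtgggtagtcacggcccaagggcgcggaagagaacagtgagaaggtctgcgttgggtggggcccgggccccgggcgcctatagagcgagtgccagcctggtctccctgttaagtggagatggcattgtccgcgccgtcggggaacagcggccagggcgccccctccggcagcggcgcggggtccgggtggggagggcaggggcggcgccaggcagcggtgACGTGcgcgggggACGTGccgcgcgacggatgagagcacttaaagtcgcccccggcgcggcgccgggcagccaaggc
Tpi1: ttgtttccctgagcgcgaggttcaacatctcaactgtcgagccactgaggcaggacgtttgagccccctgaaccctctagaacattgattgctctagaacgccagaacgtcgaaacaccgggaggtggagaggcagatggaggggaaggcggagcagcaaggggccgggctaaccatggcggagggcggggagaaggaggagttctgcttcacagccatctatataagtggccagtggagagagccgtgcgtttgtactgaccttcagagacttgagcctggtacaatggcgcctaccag
Bnip3: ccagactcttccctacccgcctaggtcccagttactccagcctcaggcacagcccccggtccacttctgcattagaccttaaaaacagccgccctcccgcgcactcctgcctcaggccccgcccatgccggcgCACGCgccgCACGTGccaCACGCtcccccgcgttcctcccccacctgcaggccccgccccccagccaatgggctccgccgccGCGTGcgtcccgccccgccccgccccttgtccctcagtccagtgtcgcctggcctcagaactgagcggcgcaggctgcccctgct
Pgk1: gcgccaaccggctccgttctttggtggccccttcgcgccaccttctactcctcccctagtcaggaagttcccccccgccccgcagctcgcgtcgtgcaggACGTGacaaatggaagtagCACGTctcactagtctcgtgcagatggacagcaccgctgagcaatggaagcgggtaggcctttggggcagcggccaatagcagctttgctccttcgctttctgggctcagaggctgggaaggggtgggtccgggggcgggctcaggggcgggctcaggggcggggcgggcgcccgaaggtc
Ldha: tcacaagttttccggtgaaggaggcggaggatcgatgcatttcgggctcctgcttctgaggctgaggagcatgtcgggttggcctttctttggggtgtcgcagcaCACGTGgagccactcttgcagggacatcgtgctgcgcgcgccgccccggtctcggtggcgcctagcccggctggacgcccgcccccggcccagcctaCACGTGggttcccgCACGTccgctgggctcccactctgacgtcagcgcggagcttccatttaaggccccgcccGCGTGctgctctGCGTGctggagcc
The Slc16a3 window lies at chr11:120948817-120949116 on the plus strand and holds 2 cores. That of Tpi1, at chr6:124814109-124814408 on the minus strand, holds 0. The Bnip3 window, at chr7:138909457-138909756 on the minus strand, holds 5, of which an overlapping pair forms the palindrome CACGTG. For Pgk1, at chrX:106186850-106187149 on the plus strand, there are 2. The Ldha window, at chr7:46845554-46845853 on the plus strand and the first of 2 listed, holds 7, and 2 palindromes are among them, while its other window holds 2 cores. A match is a string of letters and does not show binding.

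RefSeq windows were at hand for 42 of the 45 genes, and 47 of their 61 windows held the core (77.0%), as did 43.8% of all 32851 mouse promoter windows. These genes' windows were also richer in G and C, with a median of 61.0% against 52.7% over all windows, and a GC-rich window holds the core more often. Among windows of at least 60% GC, 31 of the genes' 34 held it (91.2%) and 69.2% of all such windows did. The list was made to hold known targets of the hypoxia-inducible factor, so a larger share is not a result of these arrays. Between the called and the uncalled genes of the list the shares were 11 of 14 windows (78.6%) and 31 of 41 (75.6%). These 2 shares lay close together.

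Glucose enters the cell through facilitative transporters. Slc2a1, the main glucose transporter of activated T cells, had 2457 and 2972 in lymphoma against 1575 and 1491 in wild type. Both lymphoma values were higher, but the log2 difference of 0.82 (SE 0.18) did not pass (adjusted p = 0.063 in limma). Slc2a3, a high-affinity transporter, went the other way, with 511 and 719.5 in lymphoma and 858 and 1057 in wild type. Its log2 difference was -0.65 (adjusted p = 0.25). Leaving out lymphoma array 2 took it to -0.90, and leaving out lymphoma array 1 took it to -0.40. The groups did not overlap for either transporter, where over all genes 20.6% had both lymphoma arrays above and 23.5% had both below.

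Hexokinases trap glucose by phosphorylating it. Hk2, the inducible isoform bound to mitochondria, had 369 and 367.5 in lymphoma against 196 and 209.6 in wild type, close pairs that lay well apart. Its log2 difference of 0.86 (SE 0.17) had an adjusted p of 0.0501 in limma, just outside the threshold. Hk3, an isoform of myeloid cells, was dim, with 114.5 and 130.5 in lymphoma against 146 and 155 in wild type (log2 difference -0.30, adjusted p = 0.52 in limma). A link to the macrophage and monocyte markers, lower on the lymphoma arrays, was not tested. Hk1, the broadly expressed isoform, had 2 probe sets that gave different answers. The brighter read 7438 and 6941 in lymphoma against 8341 and 6948 in wild type, with a log2 difference of -0.08 (adjusted p = 0.89). The dimmer read 2284 and 1456 in lymphoma against 1239 and 1130.0 in wild type, with a log2 difference of 0.62 (SE 0.25, adjusted p = 0.29), a reading chosen after its values were seen. Another 16 probe sets are annotated to Hk1 together with the ribosomal protein gene Rpl17, mostly with a further symbol, and their differences lay between -0.12 and -0.03 with intensities of 2694 to 8926. The difference of the brighter Hk1 probe set falls within that range and that of the dimmer outside it, so whether the brighter reads Hk1 or Rpl17 is uncertain.

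**Figure D2:**
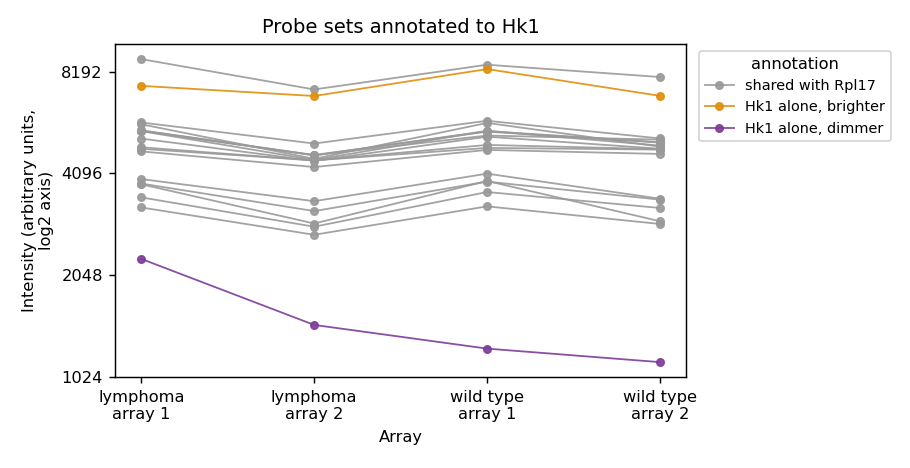
Intensity (arbitrary units, log2 axis) on each array of the probe sets annotated to Hk1, where a line joins the values of 1 probe set. The 16 probe sets shared with Rpl17 (grey) and the brighter Hk1 probe set (orange) have log2 group differences between -0.12 and -0.03. Their values vary between arrays, and the brighter Hk1 probe set reads 7438 and 6941 in lymphoma and 8341 and 6948 in wild type. The dimmer Hk1 probe set (purple) reads 2284 and 1456 in lymphoma and 1239 and 1130.0 in wild type.

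The next steps rearrange and split the sugar. Of 6 measured genes from phosphofructokinase to triosephosphate isomerase 4 were higher. Both lymphoma arrays exceeded both wild type arrays for all 6, as they did for 20.6% of all genes. Phosphofructokinase, the committing step, is built from liver, muscle and platelet type subunits, and the genes of all 3 rose. Pfkl, the liver type, had 1084 and 1211 in lymphoma against 505 and 442 in wild type, a 2.42-fold rise (log2 difference 1.28, SE 0.18, adjusted p = 0.018 in limma). Pfkp, the platelet type, had 2181 and 2136 in lymphoma against 863 and 864 in wild type (log2 difference 1.32, SE 0.16, adjusted p = 0.011). Arrays of a group differed by little next to the gap between groups for both. Pfkm, the muscle type, had 517 and 458 in lymphoma against 254 and 260 in wild type (log2 difference 0.92, adjusted p = 0.046 in limma). Its call ended under quantile normalization (adjusted p = 0.057) and without lymphoma array 1 (adjusted p = 0.0504). Whether the 3 subunits changed by different amounts was not tested.

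Aldolase splits the phosphorylated sugar into trioses. Aldoa, the main isoform, had 4964 and 6071 in lymphoma against 3287 and 2605 in wild type (log2 difference 0.91, adjusted p = 0.057 in limma). Aldoc, known from brain, had 387 and 716.5 in lymphoma against 198 and 207 in wild type (log2 difference 1.38, SE 0.30, adjusted p = 0.069), with the lymphoma arrays 0.89 apart on the log2 scale. Neither isoform passed. Tpi1, triosephosphate isomerase, which interconverts the trioses, had 3650.0 and 4291 in lymphoma against 1143 and 898 in wild type. It rose 3.91-fold (log2 difference 1.97, SE 0.20, adjusted p = 0.0064 in limma), the largest log2 difference among the enzymes of the chain and at rank 108 of all 19938 genes from the top.

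The lower steps of glycolysis pay back ATP. Of the 4 genes measured there 3 were higher, and the log2 differences of the 4 lay between 1.03 and 1.37. Pgk1, phosphoglycerate kinase, which makes ATP, had 4528 and 4657 in lymphoma against 1766 and 1776 in wild type, 2.59-fold higher (log2 difference 1.37, SE 0.15, adjusted p = 0.0080 in limma). Pgam1, the mutase that follows, had 2966 and 3472 in lymphoma against 1457 and 1115 in wild type (log2 difference 1.33, adjusted p = 0.021). Each of these genes has 3 probe sets, of which 2 carry the same values to 0.1 on all arrays. Those 2 are not separate measurements. Eno2, the enolase known from neurons, had 314 and 399 in lymphoma against 194 and 155 in wild type, and its log2 difference of 1.03 did not pass (adjusted p = 0.058 in limma). Pkm, pyruvate kinase, had 4080.0 and 3709.6 in lymphoma against 1892 and 1448 in wild type (log2 difference 1.23, SE 0.19, adjusted p = 0.022). A second Pkm probe set differed by 1.09, and neither separates the splice forms of the gene. Gapdh is read only by 25 probe sets that also list other symbols, with log2 differences of 0.24 to 0.40, and it was not tested.

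**Figure D3:**
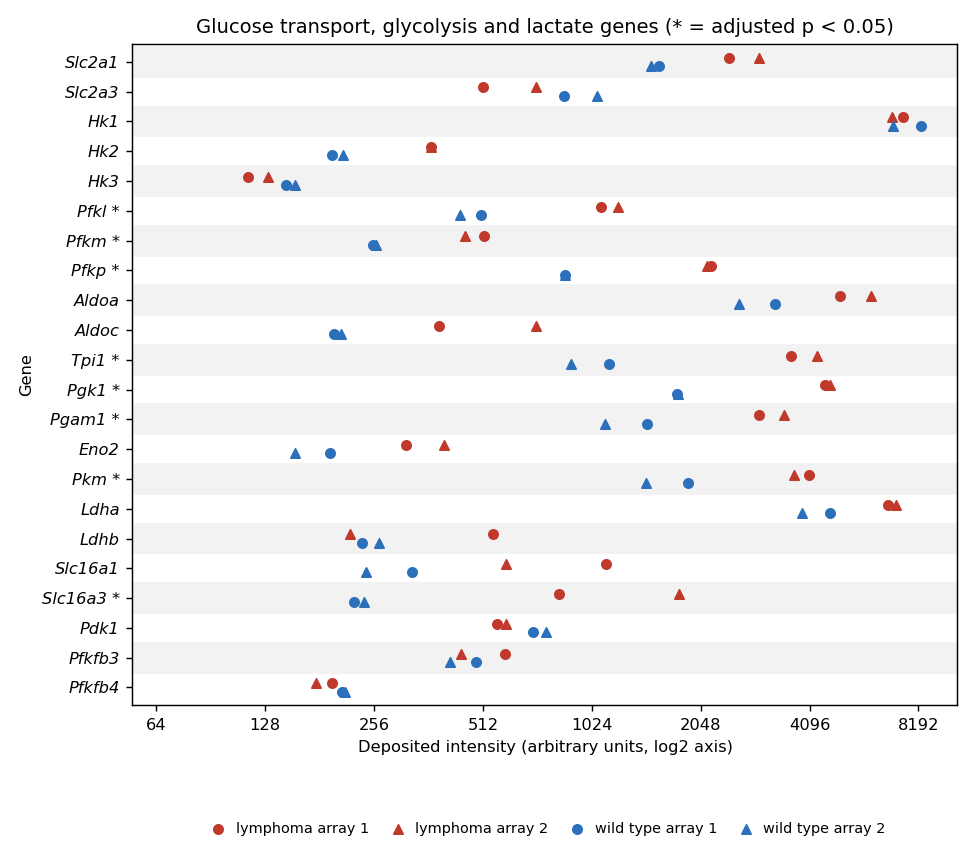
Deposited intensity (arbitrary units, log2 axis) of each measured gene of glucose transport, glycolysis and lactate handling on each array, in pathway order, with lymphoma in red above wild type in blue and an asterisk where the adjusted p was under 0.05. From Pfkl to Pkm the red points lie right of the blue points for every gene, while Slc2a3, Hk3, Pdk1 and Pfkfb4 have them on the left.

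Pyruvate is reduced to lactate and exported, or enters mitochondria. Slc16a3, the exporter typical of glycolytic cells, had 832 and 1782 in lymphoma against 226 and 240.0 in wild type. Its 5.23-fold rise was the largest of the 41 genes (log2 difference 2.39, SE 0.36, adjusted p = 0.020 in limma) and held rank 55 of all genes, although the lymphoma arrays stood 1.10 apart on the log2 scale. Slc16a1, the ubiquitous lactate carrier, had 1119 and 594 in lymphoma against 325 and 243 in wild type (log2 difference 1.53, SE 0.33, adjusted p = 0.065). Here lymphoma array 1 was the higher of the pair, and for Slc16a3 lymphoma array 2 was. Ldha, the lactate dehydrogenase subunit that favours lactate formation, had 6749 and 7119 in lymphoma against 4653.5 and 3898 in wild type (log2 difference 0.70, adjusted p = 0.067 in limma). Ldhb, the subunit that favours pyruvate, had 546.5 and 219.8 in lymphoma against 238 and 264 in wild type, so it was high on lymphoma array 1 alone. Its log2 difference of 0.47 (SE 0.41, adjusted p = 0.72 in limma) became -0.19 without that array, and 1.13 without lymphoma array 2. Pdk1, a kinase that shuts pyruvate dehydrogenase and a textbook target of the hypoxia-inducible factor, had 560 and 593 in lymphoma against 705 and 766 in wild type (log2 difference -0.35, adjusted p = 0.43). Pfkfb3 and Pfkfb4, which set the level of a phosphofructokinase activator, differed by 0.19 (adjusted p = 0.81) and -0.18 (adjusted p = 0.76).

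The pentose phosphate branch showed no call among 3 measured genes in limma, and 1 had an unadjusted p under 0.05, higher in lymphoma. The gene was Pgd, phosphogluconate dehydrogenase, an NADPH producer, with 1745.5 and 1929.6 in lymphoma against 1077 and 1187 in wild type (log2 difference 0.70, SE 0.17, adjusted p = 0.092). Tkt, transketolase, had 389.9 and 432 in lymphoma against 434 and 343 in wild type, and the groups overlapped (log2 difference 0.09, adjusted p = 0.92). Taldo1, transaldolase, had 391.5 and 386 in lymphoma against 596 and 400.2 in wild type, so 1 wild type array stood above the other 3 arrays (log2 difference -0.33, adjusted p = 0.64). Without wild type array 1 the Taldo1 difference was -0.04. The non-oxidative enzymes thus had smaller differences than Pgd, and the contrast between them was not tested. Of 8 further genes of the branch and of ribose use, none passed in limma (unadjusted p under 0.05 for 1 higher and 1 lower).

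The transcript of the hypoxia-inducible factor's alpha subunit was itself higher. Hif1a had 6257 and 6394.5 in lymphoma against 3115 and 3649 in wild type, a 1.88-fold rise (log2 difference 0.91, SE 0.15, adjusted p = 0.029 in limma). The call ended under quantile normalization (adjusted p = 0.066) and without the variance trend (adjusted p = 0.054). Egln1, the main prolyl hydroxylase, had 911 and 1047 in lymphoma against 660 and 511 in wild type (log2 difference 0.75, adjusted p = 0.13). Egln3, a hydroxylase that is itself hypoxia-induced, had 2263 and 593.5 in lymphoma against 560.5 and 416 in wild type. Lymphoma array 1 was far above the other 3 arrays for Egln3. The log2 difference of 1.26 (SE 0.59, adjusted p = 0.39 in limma) became 0.30 without lymphoma array 1 and 2.23 without lymphoma array 2.

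Of 13 hypoxia targets 1 was higher and none lower in limma (unadjusted p under 0.05 for 4 higher and 1 lower, beside 8.73% higher and 6.92% lower over all genes). The gene that passed was Bnip3, a mitochondrial receptor for mitophagy, with 561 and 613 in lymphoma against 186 and 142 in wild type (log2 difference 1.85, SE 0.21, adjusted p = 0.0083). Its second probe set differed by 1.23, in the same direction. The related receptor Bnip3l had 4841 and 5398 in lymphoma against 5036 and 4348 in wild type, and the groups overlapped (log2 difference 0.13, adjusted p = 0.82). Of this pair of related genes 1 passed and the other did not, and their difference was not tested.

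A second tier lay close to 1 log2 unit without passing. Ero1a, the endoplasmic reticulum oxidase, had 1062 and 1606 in lymphoma against 625 and 662 in wild type (log2 difference 1.02, adjusted p = 0.082 in limma). Ddit4, an inhibitor of mTOR signalling, had 1405 and 1577 in lymphoma against 942 and 620.2 in wild type (log2 difference 0.96, adjusted p = 0.10). Both lymphoma values exceeded both wild type values for these genes, as they did for 20.6% of all genes. Higd1a, a mitochondrial protein of the respiratory chain, had 155 and 226 in lymphoma against 98 and 82 in wild type (log2 difference 1.06, adjusted p = 0.070 in limma), while its other probe set differed by only 0.34. Vegfa, the angiogenic growth factor, had 165 and 286 in lymphoma against 177 and 164 in wild type, high on lymphoma array 2 alone (log2 difference 0.35, adjusted p = 0.69), and its difference was -0.05 without that array.

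None of the other targets passed. The histone demethylase Kdm3a differed by 0.27 (adjusted p = 0.59) and the MYC antagonist Mxi1 by 0.24 (adjusted p = 0.69). The ankyrin repeat gene Ankrd37 differed by 0.26 (adjusted p = 0.62). For each of these genes both lymphoma arrays lay above both wild type arrays, a pattern shared by 20.6% of all genes. The glycogen branching enzyme Gbe1 had 308 and 305 in lymphoma against 297 and 310.0 in wild type, a log2 difference of 0.01 with an SE of 0.17. Ndrg1, a stress-responsive gene, had 303 and 403 in lymphoma against 412 and 299.7 in wild type, and a log2 difference of -0.01 with an SE of 0.24. Arrays of a group thus differed more than the groups did for Ndrg1. The carbonic anhydrase Car9 was dim, with 65 and 73 in lymphoma against 103 and 91 in wild type (log2 difference -0.50, adjusted p = 0.23 in limma). The vasodilator peptide gene Adm was dim as well, with 108 and 75 in lymphoma against 149.6 and 111 in wild type (log2 difference -0.52, adjusted p = 0.41). No detection calls were at hand, so whether Car9 and Adm stood above background cannot be said.

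**Figure D4:**
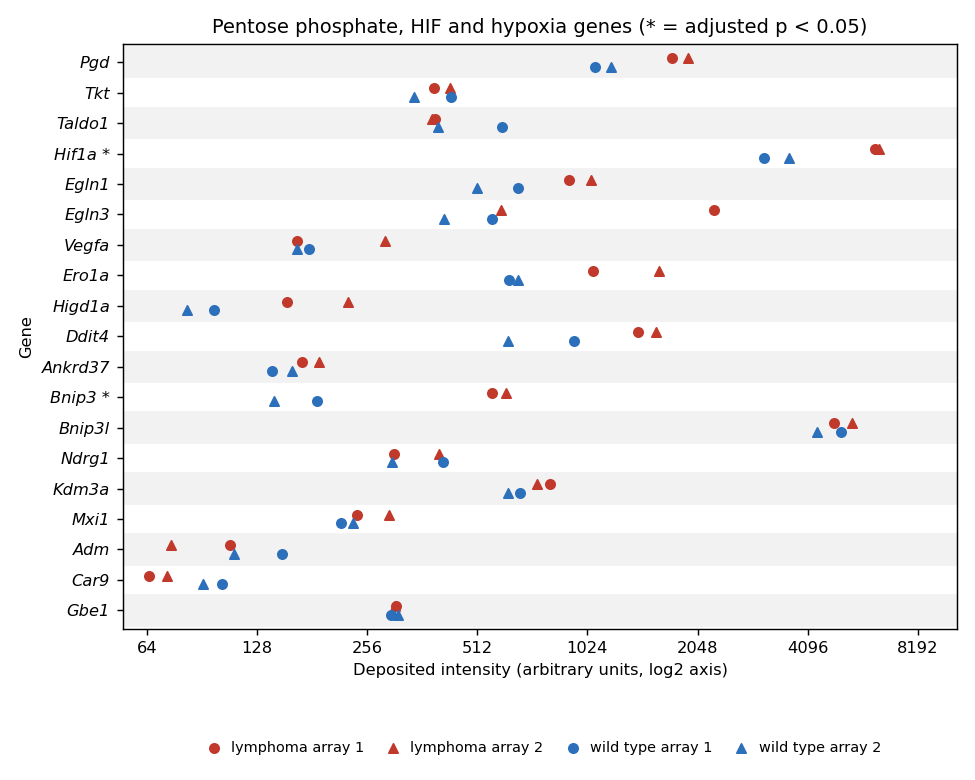
Deposited intensity (arbitrary units, log2 axis) of each measured gene of the pentose phosphate branch, of Hif1a and its hydroxylases and of the hypoxia targets on each array, with lymphoma in red above wild type in blue and an asterisk where the adjusted p was under 0.05. Hif1a and Bnip3 carry the asterisk, and Egln3 has 1 lymphoma point at 2263 far right of the other 3.

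Set in pathway order, 7 of the 13 measured enzymes from glucose to pyruvate passed. None of the 3 hexokinases was among them, although Hk2 had a log2 difference of 0.86 and an adjusted p of 0.0501 in limma. Of the 10 measured genes from phosphofructokinase to pyruvate kinase the other 3 had adjusted p-values of 0.057 to 0.069 in limma. The log2 differences of those 10 ran from 0.91 to 1.97. Gapdh and Eno1 belong to the same stretch and were not among them, and the shared probe sets of Gapdh differed by 0.24 to 0.40. Of the other 28 measured genes of the list 3 passed. Whether the enzymes differed from the other listed genes was not tested.

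**Figure D5:**
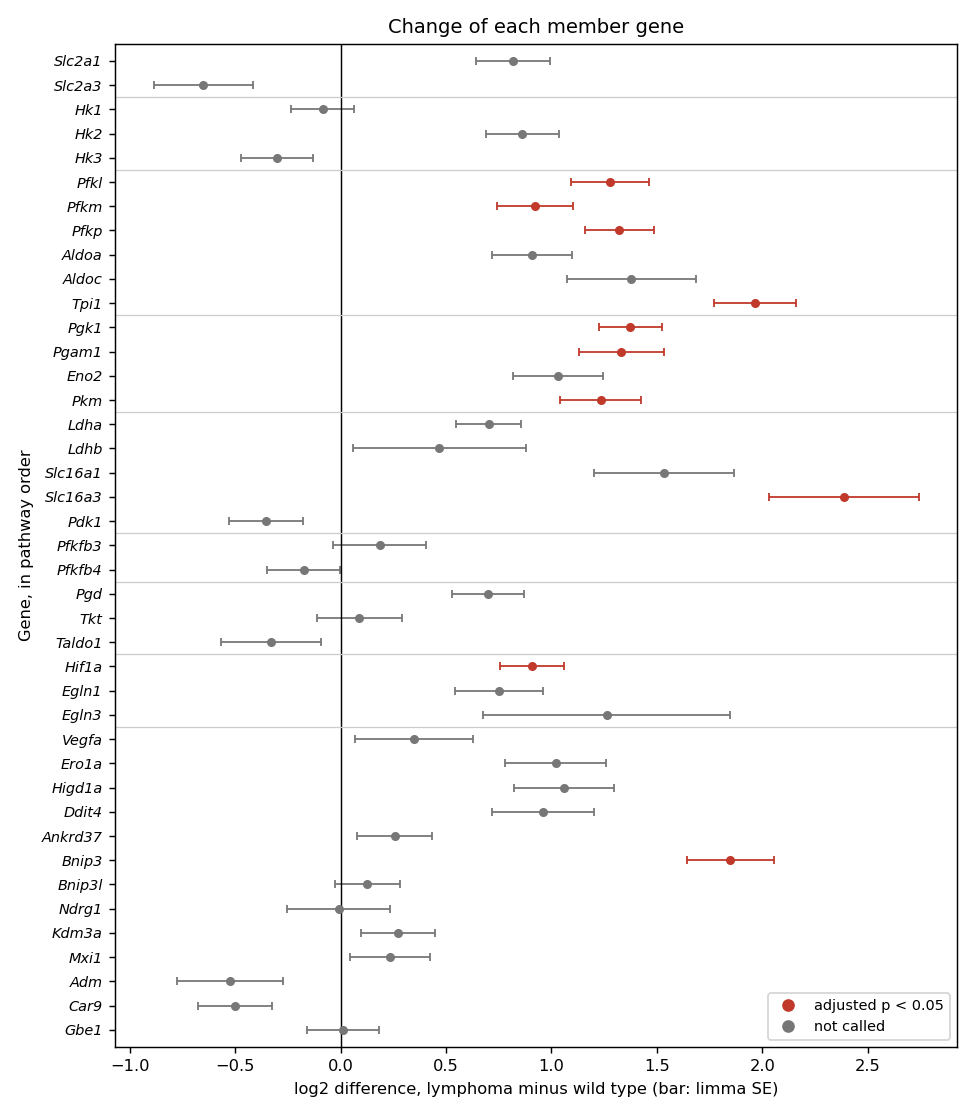
Log2 difference (lymphoma minus wild type) of the 41 measured genes in pathway order, with bars for the limma SE, red where the adjusted p was under 0.05 and grey otherwise. The red points run from 0.91 for Hif1a to 2.39 for Slc16a3.

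The pathways hold other genes, and 100 of 107 listed by role were measured. Of these 9 were higher and 3 lower in limma, where the shares over all genes were 1.82% higher and 2.46% lower. The share of lower genes thus lay near that over all genes. Ak4, a mitochondrial adenylate kinase known to respond to hypoxia, had 1053 and 1048 in lymphoma against 75 and 68 in wild type (log2 difference 3.88, SE 0.18, adjusted p = 0.00092), and 2.53 with its probe sets averaged. Stc2, a secreted glycoprotein, had 874 and 634 in lymphoma against 146 and 174 in wild type (4.66-fold, adjusted p = 0.0069). The lymphoma arrays lay far from the wild type arrays for both. Bhlhe40, a transcriptional repressor induced by hypoxia and by T cell activation, had 3104 and 3570 in lymphoma against 613 and 1146 in wild type (3.97-fold, adjusted p = 0.022 in limma). Tfrc, the transferrin receptor, rose 2.26-fold (adjusted p = 0.019) and the cytokine Mif 2.14-fold (adjusted p = 0.024). Hmox1, heme oxygenase, abundant in the macrophages of the spleen that recycle red cells, had 378 and 523 in lymphoma against 1615 and 1822 in wild type (log2 difference -1.95, adjusted p = 0.0088 in limma). Macrophage markers were also lower on the lymphoma arrays, and a link to Hmox1 was not tested. These 6 were the calls among 22 further hypoxia targets.

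Among 11 other regulators of the factor, Arnt2, a homologue of its constant partner subunit, had 1080.2 and 1584 in lymphoma against 363 and 435 in wild type (3.29-fold, adjusted p = 0.017 in limma), and none was lower, also at an unadjusted p under 0.05. Of 12 genes of pyruvate entry into mitochondria Pdk3, a second pyruvate dehydrogenase kinase, had 1231 and 1311 in lymphoma against 692 and 552 in wild type (2.06-fold, adjusted p = 0.040). Pdk1 and Pdk3 thus had differences of opposite sign, of which that of Pdk3 passed. Of 19 other genes of sugar transport and glycolysis, Slc16a7, a pyruvate and lactate carrier, was lower, opposite to Slc16a3. Slc16a7 had 36 and 52 in lymphoma against 194 and 157 in wild type (log2 difference -2.01, adjusted p = 0.0093 in limma). Its lymphoma values lay below the array medians of 129.8 to 141.8, and whether they stood above background cannot be said. Of 9 glycogen genes Pgm1, phosphoglucomutase, rose 2.07-fold (adjusted p = 0.036) and Pygl, the liver type phosphorylase, fell to 89 and 103 in lymphoma against 228 and 212 in wild type (adjusted p = 0.019). Of 19 regulators of glucose use Arrdc4, an arrestin-like inhibitor of glucose uptake, rose with 736 and 629 in lymphoma against 269 and 238 in wild type (2.69-fold, adjusted p = 0.014 in limma). The 88 genes that did not pass had log2 differences from -0.68 to 1.64.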

How the data were processed

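The authors deposited 1 linear intensity per probe set and array for 4 arrays, 2 of lymphoma and 2 of wild type CD4+ cells, made with Affymetrix Expression Console per the submitters' processing notes. The sources used here do not give its version, summarisation, background correction or normalization. Intensities reached 18153, with array medians of 129.8 to 141.8. The number of arrays limits the precision, with a median SE of 0.20 for a log2 difference. Of 35556 probe sets, 21789 had 1 symbol in the platform annotation of GEO, 1621 several and 12146 were not listed.

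The intensities were taken to log2 as they stood, with no pseudocount and no filter, and the brightest probe set was kept for each of 19938 genes. The log2 difference, lymphoma minus wild type, was tested two-sided with limma 3.58.1 under R 4.3.3, with a variance trend and p-values adjusted by Benjamini-Hochberg across the genes. The procedure was tested on simulated data. Calls were made at an adjusted p under 0.05. Every measured gene of the list is named, with called genes of the other pathway lists, Tet2 and defining markers. The genes and lists were chosen with earlier results of these data known. The other Hk1 probe set was added after seeing the data. The alternatives tried were to quantile-normalize, to subtract each array's median, to leave out dim genes, to change the variance settings, to average probe sets, to add a replicate block and to leave out each array. Promoter sequences are from RefSeq on GRCm38.p6, and figures were drawn with matplotlib 3.10.9.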

Additional observations from a re-analysis of the deposited data

How the results depend on the processing

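With 1 array left out, the number of listed genes called higher lay between 0 and 19 and the number called lower between 0 and 1, the 1 being Slc2a3 without lymphoma array 2. In the same fits 0 to 1057 of all genes were higher and 0 to 843 lower, and 0 to 14 of the other pathway genes were higher and 0 to 4 lower. No gene was called when either wild type array was missing, where the spread rested on the lymphoma pair alone. In these fits the lone array of a group is assumed to vary as the other group does. Under the remaining settings 8 to 15 listed genes were higher and 0 lower, with 8 under quantile normalization and 15 after subtraction of array medians, where Hk2, Aldoa, Eno2, Ldha and Slc16a1 joined the 10. The median log2 difference of the transport, glycolysis and lactate genes was 0.82 (quantile normalization), 0.95 (array medians subtracted) and 0.89 to 1.00 (1 array left out). That of the hypoxia targets was 0.19 under quantile normalization and 0.094 to 0.33 with 1 array left out, and that of the pentose phosphate genes lay between -0.080 and 0.26 with 1 array left out.

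Signs turned only for genes that had not passed. Hk1 was at 0.27 with its probe sets averaged, 0.62 on its other probe set and -0.22 to 0.048 with 1 array left out. Ndrg1 was at 0.031 with array medians subtracted and -0.24 to 0.22 with 1 array left out. Gbe1 was at -0.080 under quantile normalization and -0.018 to 0.044 with 1 array left out. In the same way Ldhb ranged from -0.19 to 1.13, Pfkfb3 from -0.019 to 0.39, Tkt from -0.080 to 0.26 and Vegfa from -0.047 to 0.74. The cause of these changes was not tested.

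The replicate numbers are shared between the groups, and the design text counts the RNA in pairs without saying which samples belong together. The deviations of same-numbered arrays correlated at 0.23 over all genes, which are not independent. With the replicate block 11 listed genes were higher and 0 lower, where Aldoc (adjusted p = 0.048) and Slc16a1 (0.021) passed and Pfkm (0.057) did not. The block gave 8 other pathway genes higher and 3 lower, against 9 and 3 without it, and 429 of all genes higher and 555 lower, against 362 and 490. Under the block Pdk3 did not pass (adjusted p = 0.052).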
